A study of Mus musculus with 14 samples.

Results

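Members of the Eph receptor and ephrin gene family were followed in forelimb buds of wild-type and Smad4-deficient mouse embryos: the receptor genes Epha3, Epha4, Epha7, Ephb2 and Ephb3 and the ligand genes Efna1, Efna2, Efna5 and Efnb2. They were taken by their gene symbols, which matched 9 of the 23284 symbols counted, and all 9 members passed the filter on low counts that left 12393 genes for testing. The symbols were chosen with earlier results of these data known, although the rule itself uses no measured value. The whole family counts 22 genes in these data.

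Eph receptors are receptor tyrosine kinases that bind ephrins on the surface of neighbouring cells. A-type ephrins are held in the membrane by a lipid anchor and bind mostly EphA receptors, whereas B-type ephrins span the membrane and bind mostly EphB receptors, with EPHA4 accepting both. Contact signals into both cells, and the usual outcome is repulsion, de-adhesion or the sorting of cells into separate domains. In the limb bud the system is known for guiding motor axons into dorsal or ventral muscle masses, for the affinity differences among mesenchymal cells and for separating arteries from veins.

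Part of the study asked what the mesenchyme of the early forelimb bud transcribes differently once SMAD4 has been lost. SMAD4 is the shared partner of the SMADs that carry BMP and TGFβ signals. To name SMAD4 target genes the study combined RNA-seq with SMAD4 ChIP-seq and ATAC-seq, and only the RNA-seq is used here. RNA-seq was carried out on 4 groups of NMRI (Swiss Albino) embryos, with both forelimb buds of 1 embryo pooled per replicate. Wild type (labelled ctrl, genotype Smad4+/+ PrxCreT/+) was sequenced with 3 replicates at each of 2 stages, E10.0 (embryos of 30 somites) and E10.5 (embryos of 35 somites). Smad4Δ/Δc (labelled Smad4ddc, genotype Smad4Δ/Δc PrxCreT/+) was sequenced with 4 replicates per stage. Controls therefore carry the Cre transgene too. The Prrx1 promoter drives Cre in limb bud mesenchyme, and the mutants also carry 1 constitutive null allele, so that ectoderm, vessels, blood and nerve keep a single functional copy of Smad4. In whole buds, fewer cells of a type and less RNA per cell cannot be told apart.

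Smad4 itself was at 152 to 169 CPM (read counts scaled by library size and TMM factor) in the 6 wild-type libraries and at 32.9 to 46.0 CPM in the 8 mutant libraries. The markers of the labelled tissue were present: the limb mesenchyme gene Prrx1 lay at 537 to 915 CPM and the forelimb gene Tbx5 at 76.8 to 144 CPM in every library, whereas of the hindlimb genes Pitx1 did not exceed 0.191 CPM, Isl1 reached 1.94 CPM and Tbx4 lay at 1.51 to 16.0 CPM. Between 34066930 and 61691258 reads were counted on genes per library, and 532 to 12238 reads per library on each member. Mutant replicates 4 and 5 of both stages stood apart. In these 4 libraries the ribosomal precursor Rn45s took 1.72% to 8.05% of the counted reads, against 0.151% to 0.478% in the other 10 libraries. The 8.05% was that of E10.5 mutant replicate 5 alone, beside 2.32% in E10.5 mutant replicate 4. Replicate 5 of the E10.5 mutants also had the fewest counted reads and the lowest TMM factor (0.934). The values of a group are listed below in the order of its replicates, which are numbered 1, 2 and 3 in wild type, 1, 3, 4 and 5 in E10.0 mutants and 1, 2, 4 and 5 in E10.5 mutants. These 4 libraries share their genotype with the other 4 mutant libraries, so that the split lies within the mutants, and the members' calls are given with and without them.

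The promoters of Efnb2 and Epha4, the members whose level differed between the genotypes, are shown with the motifs that SMAD proteins are known to bind. The 250 bases before the RefSeq transcript start (GRCm38.p6) are given 5′ to 3′ on the gene's strand. Capitals mark GGCGCC, the GC-rich SMAD motif, which reads the same on both strands, and GTCT, the SMAD box, written as GTCT or as AGAC on the other strand. The letter strings were found once each on their chromosome in the genome build of the files (NCBIM37, mm9).
Efnb2, chr8:8661243-8661492, minus strand, mm9: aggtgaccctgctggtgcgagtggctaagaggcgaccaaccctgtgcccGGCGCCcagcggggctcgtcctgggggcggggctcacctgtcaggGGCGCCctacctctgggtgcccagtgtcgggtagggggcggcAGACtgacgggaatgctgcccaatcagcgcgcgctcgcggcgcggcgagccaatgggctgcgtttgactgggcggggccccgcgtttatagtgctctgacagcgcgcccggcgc
Epha4, chr1:77511664-77511913, minus strand, mm9: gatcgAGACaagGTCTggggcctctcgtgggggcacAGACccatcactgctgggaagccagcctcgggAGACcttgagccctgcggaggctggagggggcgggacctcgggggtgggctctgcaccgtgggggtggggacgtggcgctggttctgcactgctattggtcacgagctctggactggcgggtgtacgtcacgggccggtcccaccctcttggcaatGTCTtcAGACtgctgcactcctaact

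The Efnb2 promoter held GGCGCC at 2 positions and the SMAD box at 1. The Epha4 promoter held no GGCGCC and the SMAD box at 6 positions. Among all 32851 promoter entries of the same length, 9.59% held GGCGCC and 82.9% held the SMAD box and the second motif was thus present in most promoters. All 9 members had a promoter entry, 11 entries in all, of which 3 held GGCGCC (Efna1, Efna2 and Efnb2, 1 entry each) and 9 held the SMAD box. Neither Epha7 entry held a match to either motif. GTCTAGAC, the palindrome that joins 2 SMAD boxes, occurred in 0.167% of all entries and in none of the 11. A match describes the letters of this window and is not a measured SMAD4 site.

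Compared per length of the longest annotated transcript, Efnb2 had the highest level among the members in all 4 groups, from a mean of 37.0 ± 1.34 CPM per kb (SD, n=3) in wild type at E10.5 to 46.2 ± 0.968 CPM per kb (n=4) in mutants at E10.5. Its libraries did not overlap those of the next member in any group. Efna2 and then Epha4 followed in 3 groups, apart from each other in E10.0 wild type but with overlapping libraries in the other 2, and in E10.5 mutants Epha4 (28.8 ± 5.23 CPM per kb) and Efna2 (24.2 ± 3.56) changed places with overlapping libraries. Efna5, Ephb3, Efna1 and Epha7 lay between 9.15 and 14.6 CPM per kb, and their order varied between the groups. Epha3 and Ephb2 were lowest, at 5.29 to 8.60 and 5.33 to 5.54 CPM per kb. The place of Ephb2 depends on the transcript used: with the second longest (4804 bases in place of 10902) its means were 12.1 to 12.6 CPM per kb. Together the 9 members took 56.5% to 64.4% of the reads on all 22 family genes.

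**Figure D1:**
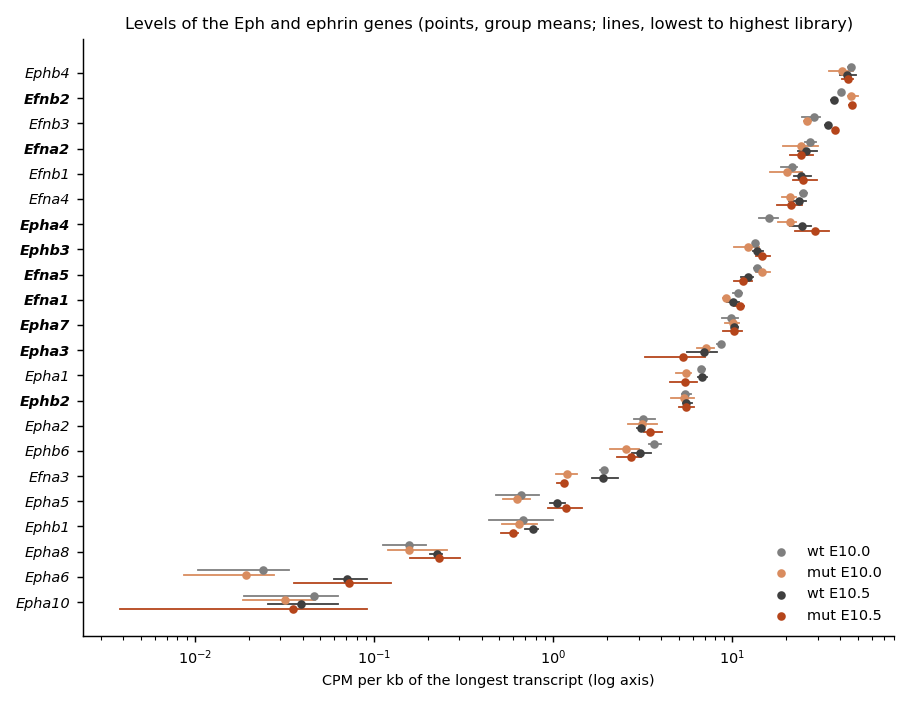
Mean level of the 22 Eph and ephrin genes in the 4 groups, in CPM per kb of the longest transcript on a log axis, with lines from the lowest to the highest library and the 9 members in bold. Efnb2 lies highest among the members (37.0 to 46.2 CPM per kb) and Epha3 and Ephb2 lowest, whereas Epha6 and Epha10 lie under 0.1.

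Between the genotypes, Epha4 and Efnb2 passed the test, at 1 stage each, and both were higher in mutants. Calls needed an adjusted p no larger than 0.1 and a change of 1.2 times or more, the thresholds of the study's methods. At E10.0, 1 of 9 members was called, Epha4, higher in mutants, where 6.61% of all genes tested were called. At E10.5, 1 of 9 was called, Efnb2, also higher, against 3.73% of all genes. Without mutant replicates 4 and 5 the count rose to 3 at E10.0 (Epha4 higher, Efna2 and Ephb3 lower, 16.2% of all genes called) and to 2 at E10.5 (Efnb2 and Epha4, both higher, 4.41% of all genes). The median log2 fold change of the members was -0.034 at E10.0 and 0.0033 at E10.5, beside -0.017 and -0.010 over all genes. Mutant libraries lay wholly above or below wild type for 3 of 9 members at E10.0 (Efnb2 above, Epha3 and Efna1 below, 17.8% of all genes) and for Efnb2 alone at E10.5 (13.0% of all genes).

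Between the stages, with all libraries, more members passed the test in mutants than in wild type. From E10.0 to E10.5, 1 of 9 members was called in wild type (Epha4, higher, 10.1% of all genes called). In mutants 5 of 9 were called (Epha4, Ephb3 and Efna1 higher, Epha3 and Efna5 lower, 19.2% of all genes). Mutant replicates with the same number deviated together across the stages, as did replicates 4 and 5 with each other. When that number was added as a blocking factor, 3 of 9 were called in mutants (Epha3, Efna1 and Efna5, 15.8% of all genes). The block uses only the numbers present at both mutant stages, replicates 1, 4 and 5. Mutant replicate 3 of E10.0 and replicate 2 of E10.5 add nothing to its fold changes. Libraries of the 2 stages did not overlap for 4 of 9 members in wild type (Epha4 higher and Epha3, Efna5 and Efnb2 lower at E10.5, 37.0% of all genes) and for 2 of 9 in mutants (Efna1 higher and Efna5 lower, 20.0%). Without mutant replicates 4 and 5, Epha4 and Ephb3 were called in mutants (17.5% of all genes), and Epha4 and Epha3 in wild type (15.1%). Whether the change with stage differed between the genotypes was tested by an interaction term, and 0 of 9 members were called, against 0.186% of all genes.

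**Figure D2:**
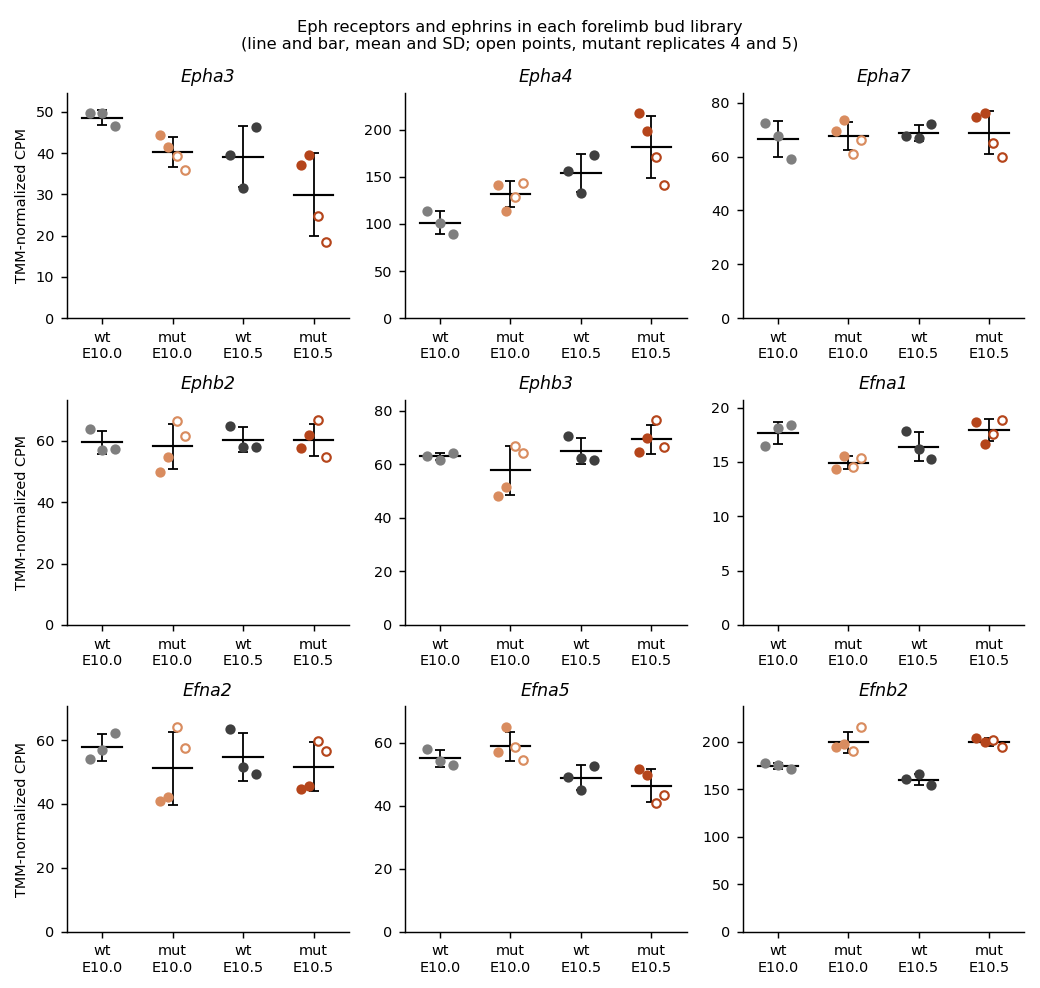
TMM-normalized CPM of each member in each library of wild type (wt, n=3) and Smad4Δ/Δc (mut, n=4) at E10.0 and E10.5, with the mean and SD and open points for mutant replicates 4 and 5. Efnb2 separates the genotypes at both stages (191 to 216 against 171 to 177 CPM at E10.0, 194 to 204 against 154 to 166 CPM at E10.5), and Epha4 lies higher at E10.5 than at E10.0 in wild type.

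Among the ligands, Efnb2 (chr8:8617434-8661239, minus strand, mm9) was higher in mutants at both stages without overlap. It encodes ephrin B2, the transmembrane ligand that marks arterial endothelium and is also made by limb mesenchyme. The E10.0 levels were 177, 176 and 171 CPM in wild type against 194, 197, 191 and 216 CPM in mutants. The E10.5 levels were 161, 166 and 154 CPM against 204, 199, 202 and 194 CPM. All mutant libraries lay above all wild-type libraries at both stages. The log2 fold change was 0.32 (SE 0.034) at E10.5, a fold of 1.25 (adjusted p = 0.00278, edgeR exact test), and 0.19 (SE 0.042) at E10.0, a fold of 1.14 under the fold threshold (adjusted p = 0.142). The call at E10.5 held under all 22 alternatives, with log2 fold changes of 0.29 to 0.35 and adjusted p of 2.05e-07 to 0.0852. Without mutant replicates 4 and 5 the values were 0.33 (adjusted p = 0.00111) and 0.17 (adjusted p = 0.124).

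Efnb2 did not pass the test between stages in either genotype. Its wild-type libraries were lower at E10.5 without overlap (log2 fold change -0.12, SE 0.034, adjusted p = 0.395), and those of the mutants overlapped (0.0032, SE 0.042). The interaction for Efnb2 was 0.13 (SE 0.054, adjusted p = 0.950). Of the 10 endothelial markers, 1 was called lower at E10.0 and none at E10.5 by the exact test (1 had an unadjusted p under 0.05), and their summed level at E10.0 was 492 to 541 CPM in wild type against 471 to 578 CPM in mutants, and at E10.5 481 to 532 against 507 to 546 CPM. Ephb4, itself a family gene, took 150 to 213 CPM of these sums, and the other 9 markers summed to 300.4 to 344 against 320.4 to 375 CPM at E10.0 and to 304 to 319 against 317 to 365 CPM at E10.5. Single endothelial markers lay apart without overlap in both directions (adjusted p by the exact test). Higher in mutants were Kdr (log2 fold change 0.30, adjusted p = 0.105) and Emcn (0.21, adjusted p = 0.211) at E10.0 and Pecam1 (0.19, adjusted p = 0.491) at E10.5. Esam, the marker called, was lower in mutants at E10.0 (-0.28, adjusted p = 0.0940). The part of endothelial cells in the values of Efnb2 was not tested.

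Efna2 (chr10:79642227-79652755, plus strand) encodes a lipid-anchored A-type ephrin. Its E10.0 levels were 54.0, 56.8 and 62.3 CPM in wild type against 41.0, 42.1, 64.1 and 57.5 CPM in mutants. Mutant replicates 1 and 3 lay below all wild-type libraries and replicates 4 and 5 among or above them. Over all libraries the log2 fold change was -0.17 (SE 0.17, adjusted p = 0.584), and without mutant replicates 4 and 5 it was -0.47 (adjusted p = 0.00138), a call that rests on 2 mutant embryos. Its E10.5 levels were 63.4, 51.6 and 49.3 CPM against 44.6, 45.8, 59.7 and 56.6 CPM, with the same split of the mutants. There the log2 fold change was -0.085 (SE 0.15, adjusted p = 0.953) with all libraries and -0.28 (adjusted p = 0.198) without replicates 4 and 5. Stage changed Efna2 in neither genotype by the test (log2 fold change -0.075 in wild type and 0.014 in mutants).

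Efna1 (chr3:89075655-89085064, minus strand) encodes ephrin A1, an A-type ligand that endothelial cells also make. The E10.0 levels were 16.5, 18.1 and 18.4 CPM in wild type against 14.4, 15.5, 14.5 and 15.3 CPM in mutants. The E10.5 levels were 17.9, 16.2 and 15.2 CPM against 18.7, 16.6, 17.6 and 18.9 CPM. All mutants lay below wild type at E10.0, whereas the groups overlapped at E10.5. The genotype log2 fold changes were -0.24 (SE 0.056, adjusted p = 0.183) and 0.13 (SE 0.079, adjusted p = 0.812), and without mutant replicates 4 and 5 they were -0.24 (adjusted p = 0.185) and 0.11 (adjusted p = 0.746).

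With stage, Efna1 rose in mutants without overlap (log2 fold change 0.26, SE 0.050, adjusted p = 0.0374) and was at -0.10 (SE 0.083, adjusted p = 0.648) in wild type. Its rise in mutants lay close to the fold threshold. It was lost when mutant replicate 1 or 4 of E10.0 or replicate 1 or 5 of E10.5 was left out (log2 fold changes 0.25, 0.25, 0.24 and 0.24), and without replicates 4 and 5 of both stages (0.25, adjusted p = 0.232). DESeq2, RLE size factors and the absence of a filter on low counts also ended it. Over 22 alternatives the adjusted p was 0.00549 to 0.232. The interaction of Efna1 was 0.37 (SE 0.097), and 0.35 without replicates 4 and 5, where Ephb3 had 0.39. With all libraries Efna1 was 1 of 9 members with an unadjusted p under 0.05, where 5.76% of all genes had one. After adjustment over all genes it did not pass (adjusted p = 0.466, edgeR quasi-likelihood test), and no member was called by DESeq2 either.

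Efna5 (chr17:62953533-63230666, minus strand) encodes ephrin A5, an A-type ligand of the limb bud that repels EPHA4-bearing motor axons. In wild type it went from 58.1, 54.2 and 53.0 CPM at E10.0 to 49.1, 45.0 and 52.8 CPM at E10.5. In mutants it went from 57.0, 65.1, 58.7 and 54.6 CPM to 51.8, 49.8, 40.9 and 43.3 CPM. Both genotypes were lower at E10.5 than at E10.0 without overlap. In mutants Efna5 fell by 0.34 on the log2 scale (SE 0.097, adjusted p = 0.00278), and in wild type the change was -0.17 (SE 0.077, adjusted p = 0.359). Leaving out mutant replicates 4 and 5 gave -0.26 in mutants (adjusted p = 0.0830), just under the fold threshold, and each library alone could be left out without losing the call. Genotype changed Efna5 at neither stage by the test (log2 fold change 0.095, SE 0.067, at E10.0 and -0.073, SE 0.10, at E10.5).

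Among the 5 member receptors, Epha4 (chr1:77363760-77511663, minus strand) had the highest level per kb and, by the exact test with all libraries, the largest change with stage. Of the other receptors, Ephb4 lay higher, at group means of 40.9 to 45.7 CPM per kb against 16.0 to 28.8 CPM per kb. EPHA4 binds both ligand classes and is known in the limb bud for its part in dorsal innervation. The E10.0 levels were 114, 101 and 89.3 CPM in wild type against 141, 113, 129 and 144 CPM in mutants. The E10.5 levels were 157, 133 and 173 CPM against 218, 198, 171 and 142 CPM. At E10.0 the groups overlapped by mutant replicate 3 and wild-type replicate 1 alone. At E10.5 mutant replicates 1 and 2 lay above all wild-type libraries and replicates 4 and 5 within their range.

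Epha4 was higher in mutants at E10.0 by a log2 fold change of 0.38 (SE 0.13, adjusted p = 0.0779), and by 0.33 (adjusted p = 0.0589) without mutant replicates 4 and 5. This call was close to the threshold. The quasi-likelihood test gave an adjusted p of 0.145. The call was also lost when mutant replicate 1 (adjusted p = 0.156) or 5 (0.215) or wild-type replicate 2 (0.196) or 3 (0.503) was left out, each with a log2 fold change of 0.30 to 0.37. Over 22 alternatives the adjusted p was 0.0226 to 0.503. At E10.5 the log2 fold change was 0.24 (SE 0.18, adjusted p = 0.556) with all libraries and 0.43 (adjusted p = 0.0216) without mutant replicates 4 and 5, over a range of 0.14 to 0.53 among the alternatives. The direction was the same at both stages under every alternative run.

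With stage, Epha4 rose in wild type by 0.61 (SE 0.15, adjusted p = 0.000921), a call that held under all 22 alternatives. In mutants it rose by 0.47 (SE 0.16, adjusted p = 0.00171). With the replicate number as a block, which rests on replicates 1, 4 and 5 alone, Epha4 rose by 0.34 (adjusted p = 0.112). Without replicates 4 and 5 it rose in mutants by 0.71 (adjusted p = 1.16e-05). Wild-type libraries of the 2 stages did not overlap, whereas mutant replicate 5 of both stages made the mutants overlap. The interaction was -0.14 (SE 0.22, adjusted p = 0.963), and 0.11 (adjusted p = 0.905) without replicates 4 and 5.

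Epha3 (chr16:63543364-63863984, minus strand) encodes a receptor of A-type ephrins. The E10.0 levels were 49.7, 49.7 and 46.6 CPM in wild type against 44.4, 41.6, 39.3 and 35.8 CPM in mutants. The E10.5 levels were 39.6, 31.7 and 46.3 CPM against 37.0, 39.6, 24.9 and 18.4 CPM. All mutants lay below wild type at E10.0, and at E10.5 replicates 4 and 5 lay below every other library. The genotype log2 fold changes were -0.27 (SE 0.072, adjusted p = 0.455) and -0.38 (SE 0.30, adjusted p = 0.422), and without replicates 4 and 5 they were -0.18 (adjusted p = 0.347) and -0.031 (adjusted p = 0.947). Only the removal of mutant replicate 2 at E10.5 produced a genotype call (-0.55, adjusted p = 0.0775).

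Epha3 fell in mutants from E10.0 to E10.5 by 0.42 on the log2 scale (SE 0.27, adjusted p = 0.0637). The call depended on single libraries. It was lost without mutant replicate 1 (adjusted p = 0.137) or 3 (0.141) of E10.0 and without replicate 4 (0.197) or 5 (0.222) of E10.5, by the quasi-likelihood test (0.133), when only the mutant libraries were fitted (0.108), and without replicates 4 and 5 of both stages, where the log2 fold change was -0.16 (adjusted p = 0.495). With the replicate number as a block, which rests on replicates 1, 4 and 5 alone, it was -0.62 (adjusted p = 0.0212). That value thus depends on replicates 4 and 5 and is no independent check of the call. In wild type the libraries of the stages did not overlap and the change was -0.31 (SE 0.16, adjusted p = 0.363), and it passed when only the wild-type libraries were fitted (adjusted p = 0.0537) or mutant replicates 4 and 5 were left out of the shared spread (adjusted p = 0.0447).

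Ephb3 (chr16:21204828-21223378, plus strand) encodes a receptor of B-type ephrins. In wild type it went from 63.0, 61.8 and 64.3 CPM at E10.0 to 70.6, 62.5 and 61.8 CPM at E10.5. In mutants it went from 48.4, 51.5, 66.7 and 64.4 CPM to 64.5, 70.0, 76.6 and 66.5 CPM. As for Efna2, replicates 1 and 3 of the E10.0 mutants lay below all wild-type libraries, and replicates 4 and 5 did not. The genotype log2 fold change at E10.0 was -0.13 (SE 0.12, adjusted p = 0.591) with all libraries and -0.34 (adjusted p = 0.00766) without replicates 4 and 5, and at E10.5 it was 0.095 (SE 0.082, adjusted p = 0.910).

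With stage, Ephb3 rose in mutants by 0.27 (SE 0.13, adjusted p = 0.0480), and by 0.43 (adjusted p = 0.000463) without replicates 4 and 5. The block by replicate number rests on replicates 1, 4 and 5 alone. With it the rise was 0.22 and no longer reached the fold threshold (adjusted p = 0.0895). It was likewise lost when mutant replicate 1 (0.19) or 3 (0.21) of E10.0, or replicate 2 (0.26) or 4 (0.22) of E10.5, was left out, and with DESeq2, RLE size factors or no filter on low counts. In wild type the change was 0.043 (SE 0.064, adjusted p = 0.890).

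Epha7 (chr4:28740281-28894649, plus strand), a receptor of A-type ephrins, and Ephb2 (chr4:136203454-136391903, minus strand), a receptor of B-type ephrins, passed the test in no comparison. Epha7 ranged from 59.3 to 76.2 CPM and Ephb2 from 49.8 to 66.8 CPM over all 14 libraries, with overlapping groups throughout. Epha7 had log2 fold changes of 0.024 (SE 0.10) and 0.0033 (SE 0.090) with genotype, and of 0.049 (SE 0.092) and 0.028 (SE 0.10) with stage. Those of Ephb2 were -0.034 (SE 0.10) and 0.00049 (SE 0.082) with genotype, and 0.021 (SE 0.075) and 0.056 (SE 0.11) with stage. Ephb2 at E10.0 showed the split of the mutants seen for Ephb3 and Efna2, with 49.8 and 54.8 CPM in replicates 1 and 3 and 66.3 and 61.6 CPM in replicates 4 and 5, but its value without the latter did not pass (-0.18, adjusted p = 0.188).

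**Figure D3:**
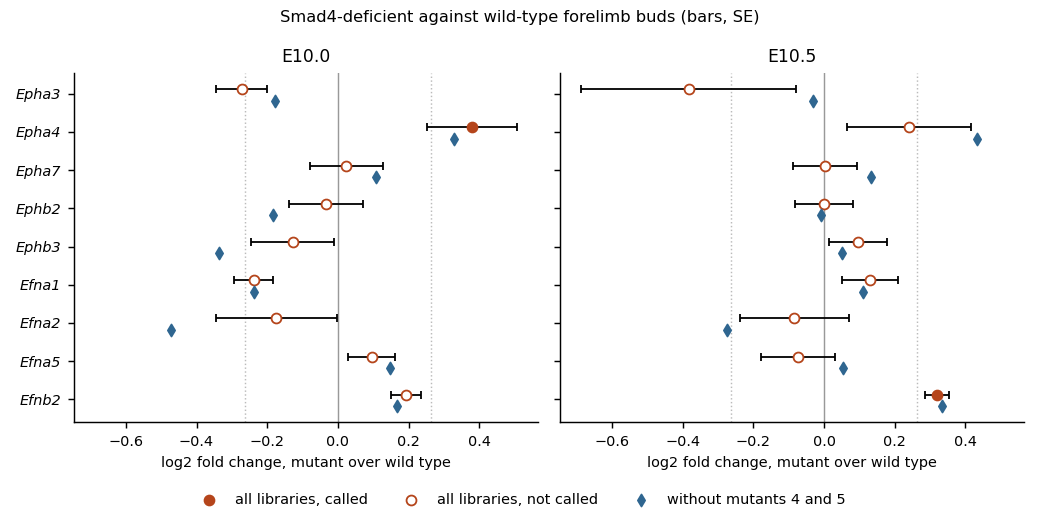
Log2 fold change of each member, Smad4Δ/Δc over wild type, at E10.0 and E10.5, with SE bars for all libraries, filled points for calls and diamonds for the fit without mutant replicates 4 and 5. Dotted lines mark a fold of 1.2. Efnb2 keeps its place (0.32 and 0.33 at E10.5), whereas Efna2 moves from -0.17 to -0.47 at E10.0 and Epha3 from -0.38 to -0.031 at E10.5.

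**Figure D4:**
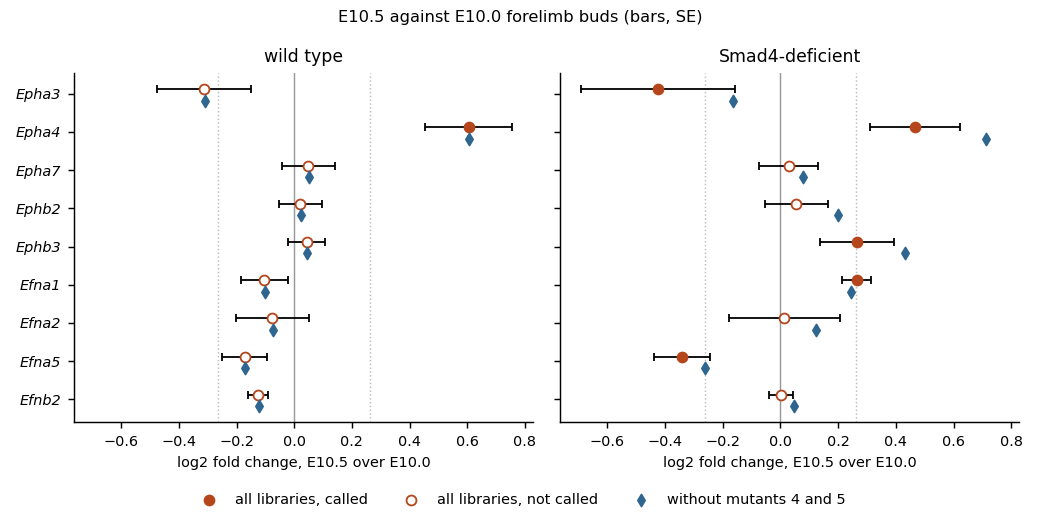
Log2 fold change of each member, E10.5 over E10.0, in wild type and in Smad4Δ/Δc, drawn as for genotype. Epha4 lies highest in wild type (0.61), and in mutants Epha4 (0.47), Ephb3 (0.27) and Efna1 (0.26) lie above 0 and Epha3 (-0.42) and Efna5 (-0.34) below.

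Single mutant libraries were set against wild type. Relative to the wild-type mean of its stage, Efnb2 was at 1.09 to 1.23 times in the E10.0 mutants and at 1.21 to 1.28 times in the E10.5 mutants, the narrowest spread of the 9 members at E10.5. Epha4 was at 1.12 to 1.42 times at E10.0 and at 0.920 to 1.41 times at E10.5. Ranges of mutant replicates 4 and 5 and of the other 2 mutant replicates did not overlap for Epha3, Epha7 and Efna2 at both stages. The same held for Ephb2 and Ephb3 at E10.0 alone and for Epha4 and Efna5 at E10.5 alone. Ranges of so few libraries part easily. The share of all genes with ranges apart is not given, so the split is not shown to be particular to members. Replicates 4 and 5 were higher for Efna2 (log2 ratio 0.55 at E10.0 and 0.36 at the later stage) and lower for Epha3 (-0.19 and -0.82) and Epha7 (-0.17 and -0.27). The part of their ribosomal RNA content in these differences was not tested.

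**Figure D5:**
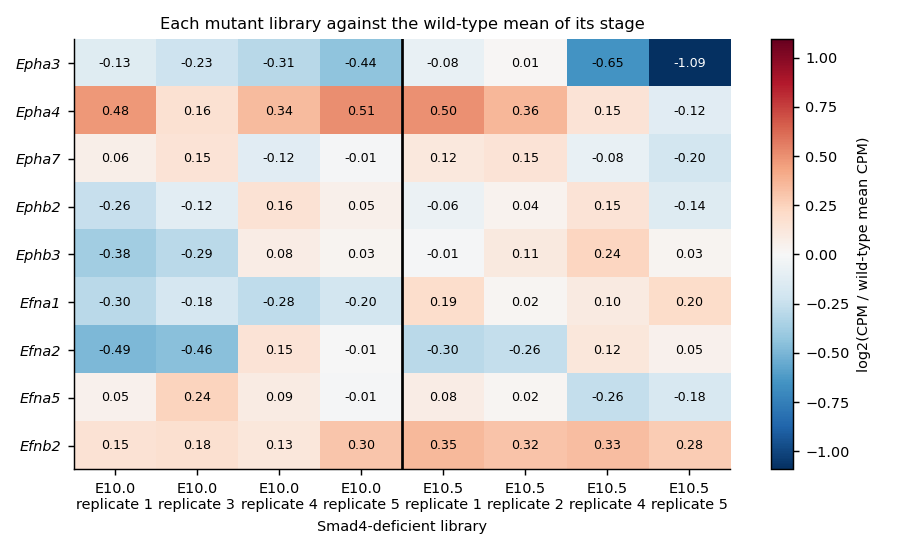
Log2 ratio of each Smad4Δ/Δc library to the wild-type mean of its stage for the 9 members (rows), with E10.0 left and E10.5 right of the line. All 8 values of Efnb2 are positive (0.13 to 0.35), Efna2 is negative in replicates 1 and 3 at E10.0 (-0.49 and -0.46), and the lowest value is Epha3 in replicate 5 at E10.5 (-1.09).

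Of the other 13 family genes, 10 were tested. Efna3, an A-type ephrin, was lower in mutants without overlap at both stages. At E10.0 it stood at 4.31, 4.66 and 4.67 CPM in wild type against 2.91, 3.20, 2.46 and 2.73 CPM in mutants, and the log2 fold changes were -0.68 (SE 0.087, adjusted p = 0.00198) at E10.0 and -0.71 (SE 0.15, adjusted p = 0.00118) at E10.5. Without mutant replicates 4 and 5 they were -0.57 (adjusted p = 0.0395) and -0.68 (adjusted p = 0.0322). Ephb6, a receptor without kinase activity, was lower at E10.0 (-0.54, SE 0.13, adjusted p = 0.0116, and -0.71 without mutant replicates 4 and 5) and was not called without wild-type replicate 3 (adjusted p = 0.178). The 10 tested family genes other than the members thus had 0 calls higher and 2 lower at E10.0 (6.61% of all genes called). At E10.5 they had 0 higher and 1 lower (3.73% of all genes called). Without mutant replicates 4 and 5, 4 were called lower at E10.0 (16.2% of all genes called), with Ephb4 (-0.34, adjusted p = 0.00951) and Efna4 (-0.32, adjusted p = 0.0490) added, and with the replicate block 0 were called at E10.5. With stage, the receptor gene Epha5 rose in both genotypes (0.68, SE 0.25, adjusted p = 0.0320 in wild type, and 0.92, SE 0.18, adjusted p = 3.34e-05 in mutants, or 1.11 without replicates 4 and 5), at 2.47 to 7.52 CPM, although not in wild type without wild-type replicate 2 or 3 of E10.0 or replicate 3 of E10.5 (adjusted p up to 0.312). The B-type ephrin Efnb3 rose in mutants (0.52, SE 0.034, adjusted p = 5.97e-09, and 0.56 without replicates 4 and 5). In wild type its libraries were also higher at E10.5 without overlap (0.26, SE 0.11, adjusted p = 0.0661), at a fold of 1.19 under the threshold. Efnb1, which lies on chromosome X and was tested with that chromosome kept, was called in mutants with stage alone (0.29, SE 0.17, adjusted p = 0.0867). Among the low receptors, Epha6 and Epha10 had 1 to 25 reads per library.

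Eph and ephrin signals are carried inside the cell by a further set of genes. Of 41 kinases, adaptors, exchange factors, GTPases and other partners, 38 were tested. At E10.0, 1 was called higher and 0 lower (6.61% of all genes called). At E10.5 none was called by the exact test (3.73% of all genes called), with 2 at an unadjusted p under 0.05. Without mutant replicates 4 and 5 the E10.0 counts were 4 higher and 5 lower (16.2% of all genes called), and with the replicate block 4 higher and 4 lower. The gene called with all libraries was Rock2, a kinase that acts downstream of RhoA on actomyosin contraction (log2 fold change 0.27, SE 0.088, adjusted p = 0.0744, and 0.32 without mutant replicates 4 and 5), with overlapping groups. Its call was kept in 9 of 14 removals of a single library, which include the E10.5 libraries outside this comparison. It was lost without E10.0 mutant replicate 1, 3 or 5 or E10.0 wild-type replicate 1 or 3. By the quasi-likelihood test Rock2 did not pass. With stage, 0 partners rose and 1 fell in wild type (10.1% of all genes called), and 2 rose and 4 fell in mutants (19.2%).

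Marker lists also differed between the groups in which members were called. Over all genes tested, 6.61% were called between genotypes at E10.0 and 3.73% at E10.5. Of the 5 limb mesenchyme markers, 4 were called lower in E10.0 mutants, and 1 was called higher and 3 lower in E10.5 mutants, with sums of 1330 to 1544 CPM in wild type against 1160 to 1375 CPM in mutants at E10.0. The largest of these changes was that of Prrx2 (log2 fold change -1.01 at E10.0 and -0.83 at E10.5), which the study names as a SMAD4 target gene. Pdgfra went the other way (0.20 and 0.32), so the list does not measure the amount of mesenchyme alone. The 6 macrophage markers summed to 2.04 to 5.23 CPM at E10.0 in wild type against 6.34 to 7.38 CPM in mutants, and 10.8 to 11.8 and 12.4 to 19.0 CPM at E10.5, and of the 4 tested, 1 was called higher in E10.0 mutants and all 4 with stage in both genotypes. The 5 markers of mesothelium and body wall summed to 6.96 to 10.2 CPM at E10.0 in wild type against 13.4 to 24.8 CPM in mutants, with 2 of the 4 tested called higher. At E10.5 the sums reached 12.9 CPM in wild type against 9.41 CPM in mutants, with 2 of the 4 called lower. Limb ectoderm markers overlapped between the genotypes at E10.0 (224 to 289 and 183 to 273 CPM). In E10.0 mutants Isl1, which stands in the neuron and the hindlimb list, and the muscle precursor gene Myf5 were called higher. In E10.5 mutants Tbx4 was called higher (log2 fold change 0.79, SE 0.14, adjusted p = 0.0955), with hindlimb sums of 7.11 CPM or more in wild type and 13.7 to 16.9 CPM in mutants that did not overlap, and the neural crest gene Erbb3 was called lower (-0.42, SE 0.032, adjusted p = 0.0394). The neural crest and neuron lists each had 1 marker at 0 in every library of 1 group, and the other lists had none. The part of these cells in the values of Epha4, Efnb2 and the other members was not tested.

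The genes whose profile over the 14 libraries lay closest to that of Epha4, by the root mean square distance of centred log2(CPM + 1) values, were Ptprc, the leukocyte antigen CD45, at a mean of 0.479 to 1.62 CPM (distance 0.112), Setbp1 (0.113) and Slitrk6 (0.116). At the low level of Ptprc the added 1 shrinks differences on the log2 scale, and its rank may rest on that. In CPM its group means rose by a larger factor than those of Epha4. The profile of Epha4 itself had a root mean square of 0.347. Those closest to Efnb2, whose own root mean square was 0.140, were Plcl2 (0.0731), 2610507B11Rik (0.0746) and 2410131K14Rik (0.0781). Setbp1 had group means of 61.4 and 77.3 CPM at E10.0 and 83.9 and 106 CPM at E10.5, wild type before mutants, the same order of the 4 groups as Epha4 (101, 132, 154 and 182 CPM). Plcl2 had 56.2, 63.7, 47.9 and 59.7 CPM in wild type and mutants at E10.0 and in wild type and mutants at E10.5, beside 175, 199, 160 and 200 CPM for Efnb2.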

How the data were processed

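Per the study's methods, the authors aligned single-end, unstranded reads to mm9 with TopHat2 2.0.13, kept unique alignments and ran HTSeq, and the deposited values are raw counts per gene symbol in 14 samples. No exon of a member overlapped one of another gene. With edgeR 4.0.16 in R 4.3.3, autosomal genes reaching 1 CPM in 3 samples or more were kept, TMM factors applied, dispersions estimated over all 14 samples (prior of 10 degrees of freedom) and groups compared by exactTest, with Benjamini-Hochberg adjustment over all genes tested. The interaction used the quasi-likelihood test. SE values come from replicate variances of log2 CPM with a prior count of 2. On simulated counts, 89.0% (genotype, E10.0) to 97.0% (stage, mutants) of 200 to 400 changed genes were recovered, with 14.8% and 10.8% false calls. The planted changes were larger on the log2 scale than every genotype change of a member. Recovery of smaller changes, or under the split of mutant replicates 4 and 5, was not simulated. Between stages in mutants, same-numbered replicates 1, 4 and 5 correlated in their deviations from the group means (0.57, 0.61 and 0.27), although different-numbered pairs within replicates 4 and 5 (0.29 and 0.38) or within the others (0.11 to 0.35) did too, whereas the 3 wild-type pairs did not (-0.28 to -0.078), and the labels name no shared batch. Members, lists and tests were chosen with earlier results of these data known. Named genes were all members, called family genes, partners called between genotypes and the 3 nearest profiles of each member called between genotypes. Gene coordinates are from GENCODE M1, and alternatives included DESeq2 1.42.0.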

Additional observations from a re-analysis of the deposited data

How the results depend on the processing

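When the members' calls were tested again under settings other than leaving out 1 library, 50 repeats kept the call and 14 did not, and with 1 library left out 96 kept it and 16 did not. Each of the 14 libraries was left out in turn, also those outside the comparison at hand. Called members at E10.0 numbered 0 by the quasi-likelihood test, 3 when replicate number was a block and 3 without mutant replicates 4 and 5, and with 1 library left out 0 to 1. At E10.5 they were 2 with the block, 2 without replicates 4 and 5, and 1 to 2 with 1 library left out. Between stages they were 2 in wild type when only the groups compared were fitted and 2 without mutant replicates 4 and 5, and 1 to 1 with 1 library left out. In mutants they were 3 with DESeq2, RLE size factors, no filter on low counts or the block, 2 without replicates 4 and 5, and 2 to 5 with 1 library left out. The interaction stayed at 0 to 0 members. The cause of these changes was not tested. Genotype numbers do not pair samples by the check, and the block moved Efna2 to -0.48 (adjusted p = 0.0429) and Ephb3 to -0.35 (adjusted p = 0.0585) at E10.0, Epha4 to 0.53 (adjusted p = 0.0259) at E10.5, and Efna3 to -0.56 (adjusted p = 0.119) and -0.71 (adjusted p = 0.136). In genotype comparisons the block uses only replicate numbers that both genotypes have. Mutant replicates 4 and 5 thus add nothing to its fold changes, and it is not independent of the fit without them. Between mutant stages the block uses only replicates 1, 4 and 5, so replicates 4 and 5 weigh more there than in the main fit.

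Called genes overall were 1990 with the block and 2003 without replicates 4 and 5 at E10.0 (256 to 1062 with 1 library left out, lowest without wild-type replicate 3), 282 to 516 at E10.5 (lowest without wild-type replicate 2), 1989 in the groups alone and 1899 with the block between wild-type stages (484 to 1516, lowest without replicate 2 of E10.0), and 1902 to 2738 between mutant stages. For the interaction they were 87 with DESeq2, 39 with no filter, 0 with the block and 6 without replicates 4 and 5 (7 to 35 with 1 library left out).

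Signs turned only in log2 fold changes that were not called. At E10.5 between genotypes the block gave 0.11 for Epha3, -0.035 for Ephb2 and 0.11 for Efna5, and the fit without replicates 4 and 5 gave -0.0094 for Ephb2 and 0.055 for Efna5. Between mutant stages Efna2 was at -0.0011 with the block and Efnb2 at -0.0021 with no filter. The Epha4 interaction was 0.20 with the block and 0.11 without replicates 4 and 5. With 1 library left out, genotype values ran from -0.052 to 0.090 (Epha7, E10.0), -0.048 to 0.072 (Epha7, E10.5), -0.10 to 0.042 (Ephb2, E10.0), -0.051 to 0.057 (Ephb2, E10.5) and -0.16 to 0.033 (Efna2, E10.5). Stage values in wild type ran from -0.027 to 0.12 (Epha7), -0.035 to 0.076 (Ephb2) and -0.021 to 0.078 (Ephb3), and in mutants from -0.023 to 0.087 (Epha7), -0.0082 to 0.12 (Ephb2), -0.075 to 0.14 (Efna2) and -0.018 to 0.042 (Efnb2).

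Groups hold 3 or 4 embryos. The p-values set a difference against the spread between embryos of a group, which the main fit estimates over all 14 libraries. Epha6 and Epha10, with 1 to 25 reads per library, were too shallow for a test.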
